A study of Mus musculus with 32 samples.

Results

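The cell division programme of an immortalised mouse blood progenitor was read here through 43 genes of the G1 phase, DNA replication and mitosis. They were taken by symbol from the 55487 gene identifiers of the expression tables, all 43 were found, and all 43 were among the 14869 genes with enough counts to test. They comprise 10 G1 genes (the D and E cyclins, Cdk2, Cdk4, Cdk6, E2f1 and E2f2), 17 S phase genes, 11 mitotic genes and 5 inhibitors or arrest-linked genes (Cdkn1a, Cdkn1b, Cdkn2c, Ccng1 and Ccng2). The cells were hematopoietic progenitors of fetal liver made to divide without limit by an estrogen-dependent HOXB8 (ER-HOXB8), grown with b-estradiol, stem cell factor medium and G418. The wild-type line was hi-77+/+ (Gata2 -77+/+), and the mutant line was hi-77-/- (Gata2 -77-/-), which lacks a distal enhancer of Gata2 on both alleles. Each line received for 4 h a vehicle, IFNg at 1 ng/ml, the TLR2 ligand Pam3CSK4 at 100 ng/ml, or both. Each of the 8 groups had 4 libraries of total RNA, 32 in all. Every group carried ER-HOXB8 and was grown in b-estradiol, so no group shows these genes without it, and each genotype was 1 line, so a difference between genotypes is a difference between 2 lines.

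The members act in a set order. In G1, D cyclins bind Cdk4 and Cdk6, and E cyclins bind Cdk2; together they inactivate the retinoblastoma protein and free E2F factors, which switch on genes of DNA replication. Origins are licensed before S phase by Cdc6 and Cdt1, which load the MCM helicase, and Cdc45 and the GINS complex start it in S phase. Mitotic genes follow, from cyclins A and B with Cdk1 to the Aurora and Polo kinases, the spindle checkpoint and topoisomerase. In bulk RNA, fewer cells in a phase and less RNA in each such cell cannot be told apart.

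The libraries held 44.18 to 71.42 M expected counts each (M, units of 1000000). Values are counts per 1000000 library counts after TMM scaling (CPM), with SD over 4 libraries. Log2 fold changes come with the standard error of the fit, and adjusted p is that of edgeR's quasi-likelihood test with Benjamini-Hochberg adjustment over all genes tested. Gata2 itself was 43.4 ± 8.27 CPM (SD, n = 4) in vehicle-treated wild-type libraries and 7.52 ± 0.679 in mutant ones. Of 8 progenitor markers, 7 were expressed in both lines and Hoxa9 was at 0. The 3 T cell and 4 hepatocyte markers summed to at most 0.233 and 0.304 CPM, with Cd3e and Ttr at 0 in every library. Of 5 macrophage markers C1qa was at 0 in every library, but the list summed to 18.3 to 22.7 CPM in libraries of the wild-type and 6.0 to 15.1 CPM in those of the mutant line, with Adgre1 at group means of 18.8 to 20.9 and 4.91 to 6.01 CPM and Csf1r highest in mutant cells under Pam3CSK4 (9.55 CPM). Of 3 stromal markers Col3a1 was at 0 in every library, while Pdgfrb had group means of 22.9 to 39.7 CPM in wild-type and 10.1 to 20.8 CPM in mutant cells. The summed mast and basophil markers ran from 302 to 409 CPM in wild-type and from 51.4 to 73.8 in mutant libraries, and B lymphoid ones from 33.1 to 43.7 and from 189.7 to 287. Erythroid markers summed to 19.9 to 34.6 and 3.29 to 5.39 CPM, megakaryocyte ones to 11.1 to 17.2 and 2.97 to 4.14. Neutrophil markers summed to 65.5 to 117 and 46.5 to 62.4 CPM. Of these, Mmp8 was higher in the mutant under vehicle (12.7 and 50.6 CPM) and the others lower, such as S100a9 (28.6 and 1.31). The part of these marker levels in the differences of the members was not tested. Mitochondrial and small structural RNAs took 24.0% ± 4.17 of the counts in wild-type vehicle libraries but 13.6% to 15.9% in treated wild-type groups and 21.1% to 27.3% in mutant groups. No treated wild-type library reached the lowest vehicle one in this share (17.7% against 19.4%), so in wild-type cells treatment and share cannot be fully told apart. Each result below was also computed with the share as a covariate. Except for Pam3CSK4 in wild-type cells, the percent of all genes called in that fit is not given. A lower count of members there is therefore not a result about the members alone. The labels do not tell separate cultures from repeats of a single culture, so each p-value is set against the spread among these libraries alone, and that spread may be technical.

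The promoters of the S phase members held E2F letters more often than those of the other classes, and those of the mitotic members held CHR letters more often. RefSeq promoters of the build GRCm38.p6 (250 bases before to 50 after the start of transcription) were at hand for 34 of the 43 members, 39 promoters in all. An E2F match (TTTCGCGC, TTTGGCGC, TTTCCCGC or TTTGCCGC, either strand) lay in 7 of 14 S phase promoters, those of Mcm3, Mcm5, Mcm6, Mcm7, Cdc6, Cdt1 and Gins3. It lay in 1 of 9 mitotic promoters (Cdk1), 2 of 9 G1 promoters (Cdk2 and E2f2) and none of 7 inhibitor promoters, against 2.26% of all 32851 promoters of this length. The CHR letters TTTGAA or TTCGAA, read by the repressive DREAM complex and its activating relatives, were in 8 of 9 mitotic and 4 of 14 S phase promoters, against 19.2% of all. The CCAAT box, bound by NF-Y, was in 9 of 9 mitotic and 11 of 14 S phase promoters, against 37.4% of all. The IFNg-linked GAS letters TTCNNNGAA were in 2 of 14 S phase promoters (Cdc45 and Mcm5) and in no G1, mitotic or inhibitor promoter of the table, against 8.30% of all. Overlapping matches were counted once per promoter, and a match is a run of letters, not a shown binding site.

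Windows of 100 to 200 bases from 3 replication and 3 mitotic promoters are shown because they hold these letters at different counts. Each line ends at the base before the RefSeq start of transcription and reads 5′ to 3′ on the gene's strand in GRCm38.p6. None of the windows overlaps an annotated exon. The Cdc6 window nevertheless lies inside that gene as annotated by GENCODE vM21 (chr11:98907801-98923940), downstream of its first base. Capitals mark E2F, CHR and CCAAT letters on either strand (ATTGG is CCAAT reversed), and in Mcm5 (chr8:75109349-75109508, plus strand) and Mcm6 (chr1:128359706-128359825, minus strand) the first run of capitals is 2 E2F matches that overlap on opposite strands. The others are Cdc6 (chr11:98908001-98908150, plus strand), with 1 E2F match, and Ccnb2 (chr9:70421555-70421654, minus strand), with 3 CCAAT boxes. Mki67 (chr7:135716380-135716579, minus strand) has 3 CCAAT boxes and 2 CHR matches, and Top2a (chr11:99024190-99024349, minus strand) has 4 CCAAT boxes and 3 CHR matches. Some matches lie outside the windows, so these counts are not those of the whole promoters. In Ccnb2 they are CHR matches at positions -167 and 4 from the start of transcription. In Top2a they are a CHR match at -179 and CCAAT boxes at -227 and -189, and in Mcm5 a CCAAT box at 6.
Mcm5: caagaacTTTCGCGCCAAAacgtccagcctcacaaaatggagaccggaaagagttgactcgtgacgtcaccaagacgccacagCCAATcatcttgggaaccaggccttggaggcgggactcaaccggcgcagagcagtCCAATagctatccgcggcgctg
Mcm6: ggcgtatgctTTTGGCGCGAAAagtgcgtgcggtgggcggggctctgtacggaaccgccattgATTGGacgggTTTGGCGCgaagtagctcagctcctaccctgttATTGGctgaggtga
Cdc6: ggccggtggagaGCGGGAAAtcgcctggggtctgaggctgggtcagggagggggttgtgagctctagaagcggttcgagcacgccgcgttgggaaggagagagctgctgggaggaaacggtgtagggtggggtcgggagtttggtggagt
Ccnb2: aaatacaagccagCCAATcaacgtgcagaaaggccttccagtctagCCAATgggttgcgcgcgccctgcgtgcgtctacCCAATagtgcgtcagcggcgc
Mki67: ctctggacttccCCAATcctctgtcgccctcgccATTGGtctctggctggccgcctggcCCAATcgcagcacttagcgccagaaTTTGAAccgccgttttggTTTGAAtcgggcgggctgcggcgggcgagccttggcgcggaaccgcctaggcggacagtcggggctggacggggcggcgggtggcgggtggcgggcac
Top2a: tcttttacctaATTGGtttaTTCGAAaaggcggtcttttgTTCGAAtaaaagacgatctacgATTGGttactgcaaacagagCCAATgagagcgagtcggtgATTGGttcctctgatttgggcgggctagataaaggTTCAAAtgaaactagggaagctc

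Under vehicle, the mutant line had different levels of some D cyclins and inhibitors, with most replication and mitotic members slightly lower. Ccnd1 was 1.89-fold lower and Ccnd2 1.62-fold higher in the mutant, Cdkn2c was 2.5-fold higher, and Cdt1 and Mcm5 were 1.75-fold and 1.51-fold lower. Of the members, 27 of 43 passed an adjusted p of 0.05 (7 higher, 20 lower), against 53.7% of all 14869 genes tested (24.4% higher, 29.3% lower). With a 1.5-fold change required as well, 5 members passed, against 21.5% of all genes. The share of members called was close to that of genes at large, and the members' changes were mostly small: among those called, the log2 change ran from 0.093 to 1.32 in size. The 4 and 4 libraries did not overlap for 23 of the 27 called and 23 of all 43 members, against 43.6% of all genes tested.

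**Figure D1:**
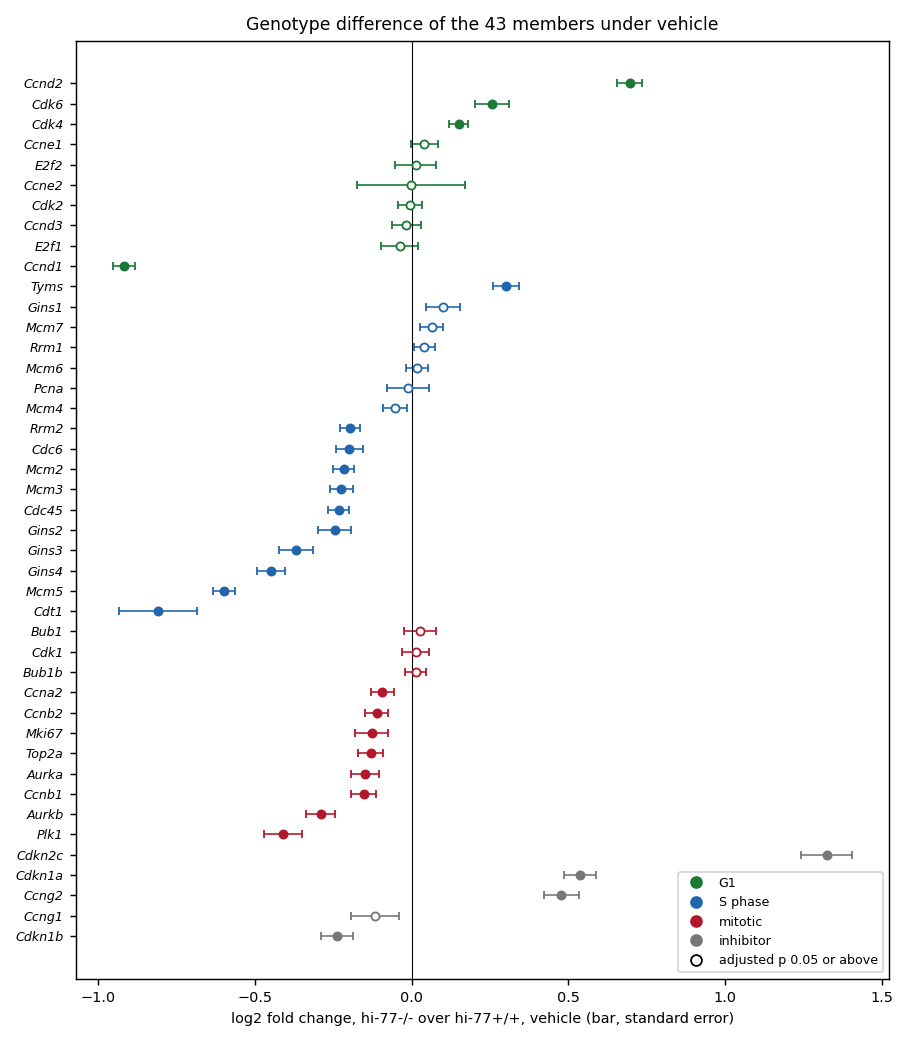
Log2 fold change of each of the 43 members in the mutant over the wild-type line under vehicle, with the standard error of the fit as a bar. Filled points passed an adjusted p of 0.05; Ccnd1 (-0.92) and Cdkn2c (1.32) lie at the ends, and 8 of 11 mitotic members are filled and below 0.

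The D cyclins start the G1 programme in response to growth factors. Ccnd1 (gene at chr7:144929931-144939925 in GRCm38 by the GENCODE vM21 annotation, as for all gene positions here) was 52.4, 51.9, 54.6 and 53.2 CPM in wild-type and 27.7, 28.1, 27.6 and 29.0 CPM in mutant vehicle libraries. Every mutant library lay below every wild-type one (log2 fold change -0.92 ± 0.04, adjusted p = 6.9e-22). Ccnd2 (chr6:127125162-127152193) went the other way, with 62.0, 71.7, 72.4 and 67.3 CPM in wild-type and 109.9, 110.2, 107 and 116 CPM in mutant libraries. The groups again did not overlap (log2 fold change 0.70 ± 0.04, adjusted p = 4.8e-17). Ccnd3 (chr17:47505051-47599691) was 78.5, 84.8, 93.6 and 89.1 CPM in wild-type and 80.2, 90.0, 86.9 and 85.1 in mutant libraries, with overlapping groups (log2 fold change -0.017 ± 0.05, adjusted p = 0.8). Per kilobase of effective transcript length, Ccnd3 was the highest of these cyclins in both lines and made up 65.2% ± 0.936 (SD, n = 4) of the summed D cyclin level in wild-type and 64.8% ± 1.51 in mutant cells. Ccnd1 took 19.5% ± 0.866 and Ccnd2 15.3% ± 0.674 of that sum in wild-type, and 10.5% ± 0.297 and 24.7% ± 1.23 in mutant cells, so their order was exchanged. Their kinase partners Cdk4 and Cdk6 were slightly higher in the mutant (log2 fold change 0.15 ± 0.03 and 0.26 ± 0.05, adjusted p = 5.5e-05 and 0.00014).

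The next step of G1 was nearly level between the lines under vehicle. Ccne1 was 24.0, 23.6, 20.5 and 21.9 CPM in wild-type and 23.0, 22.9, 23.3 and 23.5 CPM in mutant libraries, and the groups overlapped (log2 fold change 0.040 ± 0.04, adjusted p = 0.46). Ccne2 was 139, 97.0, 78.2 and 125 CPM in wild-type libraries, the widest spread of any D or E cyclin here, and 120.4, 111, 107 and 100.0 in mutant ones (adjusted p = 0.99). Cdk2, E2f1 and E2f2 had log2 fold changes of -0.0057, -0.038 and 0.013, with none passing the test.

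Inhibitors moved in both directions. Cdkn2c (chr4:109660876-109667189), which encodes the Cdk4 and Cdk6 inhibitor p18, was 5.30, 5.01, 5.75 and 5.41 CPM in wild-type and 13.5, 12.6, 13.1 and 14.5 CPM in mutant libraries. That was the largest difference among the 43 members under vehicle (log2 fold change 1.32 ± 0.08, adjusted p = 3.2e-16), and no libraries overlapped. Cdkn1a, the gene of the p53-induced inhibitor p21, was 21.8, 23.8, 26.2 and 24.5 CPM in wild-type and 33.0, 36.9, 33.0 and 36.7 CPM in mutant libraries, again without overlap (log2 fold change 0.54 ± 0.05, adjusted p = 3.8e-11). Cdkn1b, which encodes p27, was lower in the mutant, with 25.9, 23.8, 26.2 and 25.3 CPM against 20.7, 22.1, 21.3 and 21.8 CPM (log2 fold change -0.24 ± 0.05, adjusted p = 0.00011). Ccng2, a G-type cyclin linked to withdrawal from the cycle, was 17.0, 16.5, 15.2 and 16.6 CPM in wild-type and 23.4, 21.7, 22.5 and 23.1 CPM in mutant libraries (log2 fold change 0.48 ± 0.06, adjusted p = 4.4e-09). All wild-type values of Cdkn1b lay above, and all wild-type values of Ccng2 below, those of the mutant. Ccng1, a p53 target, did not pass (log2 fold change -0.12 ± 0.08, adjusted p = 0.2).

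Of the 17 S phase members, 10 were lower in the mutant under vehicle and 1, Tyms (thymidylate synthase), was higher. Their median log2 fold change was -0.20, beside -0.014 over all genes tested. The helicase subunit Mcm5 (chr8:75109569-75128439) was 633, 649, 639.6 and 659 CPM in wild-type and 425, 429.5, 432 and 418 CPM in mutant libraries (log2 fold change -0.60 ± 0.04, adjusted p = 1.1e-16). The licensing factor Cdt1 (chr8:122568015-122573554) was 33.3, 33.7, 49.8 and 44.2 CPM in wild-type and 18.2, 23.8, 26.6 and 23.3 CPM in mutant libraries (log2 fold change -0.81 ± 0.12, adjusted p = 3.7e-06). Neither gene's groups overlapped, though Cdt1 varied more among wild-type libraries. The 6 subunits of the MCM ring did not move as one: Mcm2, Mcm3 and Mcm5 were lower (-0.22, -0.22 and -0.60), while Mcm4, Mcm6 and Mcm7 did not pass (-0.054, 0.017 and 0.064). Mcm5 and Mcm6, whose promoters both open with paired E2F matches above, gave different values. Of the GINS subunits, Gins2, Gins3 and Gins4 were lower (-0.25, -0.37 and -0.45) and Gins1 did not pass (0.10). Cdc45, Cdc6 and the ribonucleotide reductase subunit Rrm2 were also lower (-0.23, -0.20 and -0.20), and Tyms was higher by 0.30. The sliding clamp Pcna and the reductase subunit Rrm1 did not pass (-0.010 and 0.040).

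Of the 11 mitotic members, 8 were lower and none was higher in the mutant, with a median log2 fold change of -0.13. The mitotic kinases Plk1 and Aurkb changed most (-0.41 ± 0.06 and -0.29 ± 0.05, adjusted p = 5.4e-07 and 2e-06), with Plk1 at 61.3 ± 6.68 CPM in wild-type and 46.2 ± 3.03 CPM in mutant libraries. The other 6 changed less: Aurka -0.15, the cyclins Ccna2 -0.093, Ccnb1 -0.15 and Ccnb2 -0.11, the proliferation marker Mki67 -0.13 and Top2a -0.13. The kinase Cdk1 and the checkpoint genes Bub1 and Bub1b did not pass (0.013, 0.026 and 0.012). G1 members had 3 higher and 1 lower and a median of 0.0053.

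These differences largely recurred under each treatment. The 4 comparisons have no libraries in common, but all set the same 2 lines against each other, with 1 common estimate of the spread. Under IFNg 33 of 43 members passed (10 higher, 23 lower), against 53.1% of all 14869 genes tested (25.7% higher, 27.4% lower); with 1.5-fold required, 4 passed, against 20.8%. Under Pam3CSK4 39 of 43 members passed (12 higher, 27 lower), against 65.6% of all 14869 genes tested (32.1% higher, 33.5% lower); with 1.5-fold required, 5 passed, against 26.6%. Under both agonists 35 of 43 members passed (10 higher, 25 lower), against 60.2% of all 14869 genes tested (30.5% higher, 29.7% lower); with 1.5-fold required, 5 passed, against 23.1%. The 6 members Ccnd2, Cdk4, Cdk6, Tyms, Cdkn1a and Cdkn2c were higher in the mutant in all 4 conditions, and 19 were lower in all 4, among them Ccnd1, Cdkn1b, 9 S phase genes and 8 mitotic genes. E2f2 passed in none. Cdkn2c kept the largest difference (log2 fold changes 1.53, 1.39 and 1.40 under IFNg, Pam3CSK4 and both). The S phase median was -0.15, -0.28 and -0.25, and the mitotic median -0.16, -0.19 and -0.24, beside 0.00034, -0.015 and 0.0066 over all genes. With that share as a covariate, 27 of 27 calls under vehicle were kept in the same direction, 27 of 33 under IFNg, 21 of 39 under Pam3CSK4 and 25 of 35 under both. By that fit 1 S phase member was higher and 10 were lower in each condition, where the fit without the covariate had 1 and 10 under vehicle, 2 and 12 under IFNg, 3 and 13 under Pam3CSK4 and 3 and 11 under both. The S phase median with the covariate was -0.19, -0.28 and -0.25 under the 3 treatments. The mitotic median shrank to -0.065, -0.022 and -0.14, and the mitotic calls were 0 higher and 5 lower under IFNg, 0 higher and 3 lower under Pam3CSK4 and 0 higher and 7 lower under both.

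**Figure D2:**
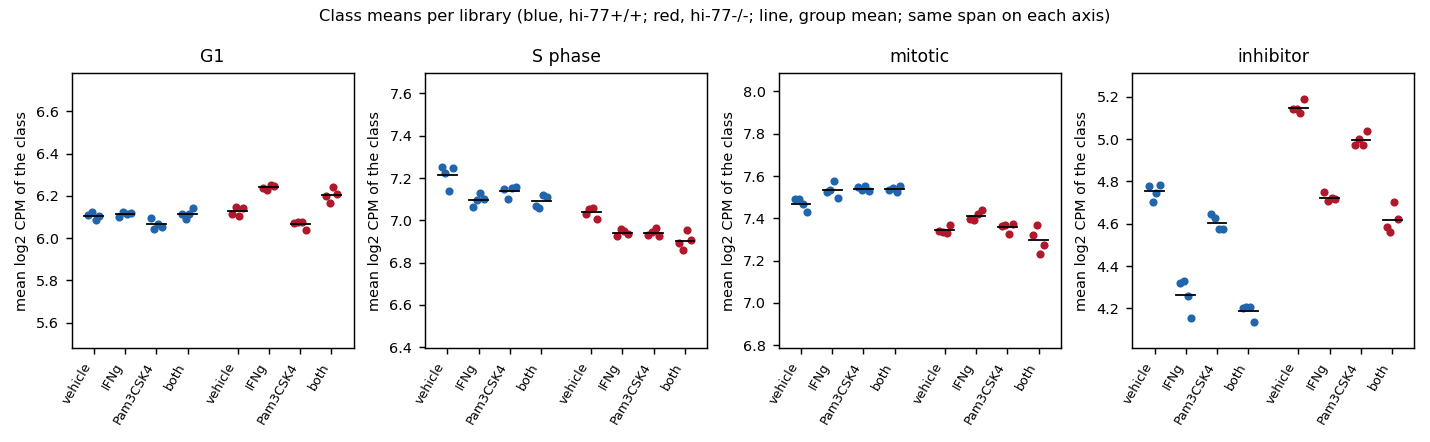
Mean log2 CPM of the members of each class in each library, by group, on axes of equal span; the line is the mean of 4 libraries. In each condition the mutant libraries lie below the wild-type ones for the S phase and mitotic classes and above them for the inhibitors, and the inhibitor mean is lower after IFNg in both lines (wild-type 4.75 to 4.27, mutant 5.15 to 4.72).

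IFNg for 4 h lowered 3 arrest-linked genes and raised Ccnd1, Ccnd2 and Cdkn1a in both lines. The replication members that passed all fell. The mitotic members that passed, 4 of 11 in wild-type and 2 of 11 in mutant cells, all rose. With the structural covariate 1 mitotic member passed as lower in each line. Of 42 further mitotic genes in mutant cells, 1 was higher and 14 were lower in that fit. Ccng2 fell 2.49-fold in wild-type and 2.74-fold in mutant cells, the largest response of any member, and Cdkn1b and Cdkn2c fell as well. In wild-type cells 24 of 43 members passed (9 higher, 15 lower), against 35.4% of all 14869 genes tested (17.8% higher, 17.6% lower); with 1.5-fold required, 3 passed, against 6.32%. In mutant cells 20 of 43 members passed (8 higher, 12 lower), against 33.2% of all 14869 genes tested (18.3% higher, 14.9% lower); with 1.5-fold required, 3 passed, against 6.47%.

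Ccng2 (chr5:93267257-93276231) went from 17.0, 16.5, 15.2 and 16.6 CPM under vehicle to 6.67, 7.15, 6.21 and 6.23 CPM under IFNg in wild-type cells. In mutant cells it went from 23.4, 21.7, 22.5 and 23.1 to 8.0, 7.92, 8.10 and 9.16 CPM. No libraries of vehicle and IFNg overlapped in either line (log2 fold change -1.31 ± 0.06 and -1.45 ± 0.06, adjusted p = 2.6e-19 and 5e-21). Cdkn1b was 17.5, 16.4, 16.1 and 16.3 CPM in wild-type and 15.1, 14.6, 14.1 and 13.0 CPM in mutant libraries under IFNg, each below its vehicle libraries (log2 fold change -0.61 ± 0.05 and -0.60 ± 0.05, adjusted p = 4.7e-12 and 1.1e-11). Cdkn2c fell to 4.16, 3.73, 3.56 and 2.79 CPM in wild-type and to 9.83, 9.81, 10.4 and 10.7 CPM in mutant libraries (log2 fold change -0.60 ± 0.09 and -0.40 ± 0.08, adjusted p = 1e-06 and 9.7e-05). The inhibitor Cdkn1a moved against these 3, rising to 28.1, 29.4, 28.1 and 29.8 CPM in wild-type and 46.5, 43.3, 42.2 and 45.7 CPM in mutant libraries (log2 fold change 0.26 ± 0.05 and 0.35 ± 0.05, adjusted p = 0.00013 and 8e-07). The 5 inhibitor members held 1 riser and 3 fallers in each line, and Ccng1 passed in neither. With the structural covariate the same 4 passed in the same directions in both lines, with Ccng2 at -1.36 ± 0.07 and -1.48 ± 0.06.

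**Figure D3:**
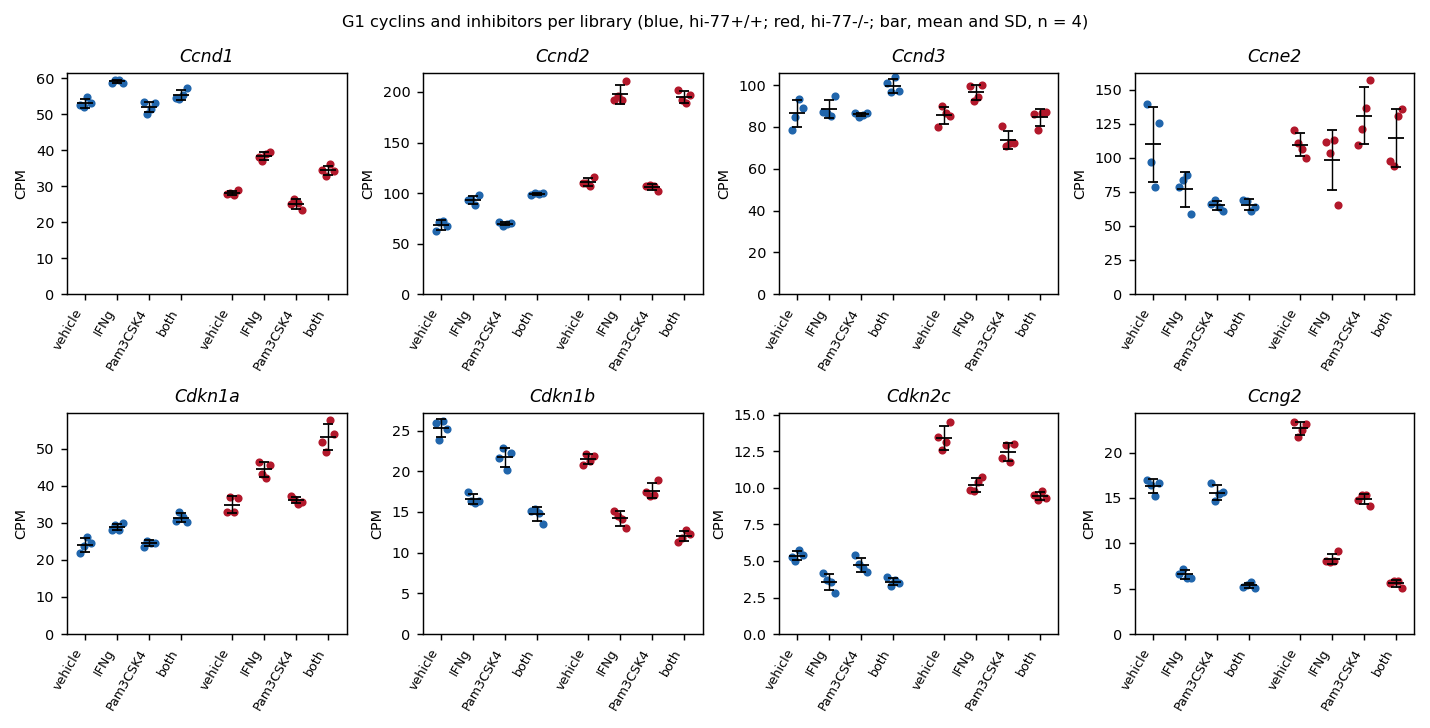
CPM of 8 G1 and inhibitor members in each of the 32 libraries, by treatment, in the wild-type (blue) and mutant (red) line, with the mean and SD of 4 libraries. Ccng2 is lowest under IFNg and both in each line, Ccnd1 is lower and Ccnd2 higher in the mutant in every condition, and Ccne2 spreads from 78.2 to 139 CPM within wild-type vehicle libraries.

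Ccnd1 and Ccnd2 rose further in the mutant than in the wild-type line. Ccnd2 rose to 93.3, 94.2, 88.5 and 98.2 CPM in wild-type libraries (log2 fold change 0.45 ± 0.04, adjusted p = 2.7e-11) and to 192, 196, 192 and 211 CPM in mutant ones (0.84 ± 0.04, adjusted p = 6.2e-19). Ccnd1 rose to 58.7, 59.5, 59.5 and 58.6 CPM in wild-type (0.16 ± 0.03, adjusted p = 0.00061) and to 38.2, 37.1, 39.0 and 39.6 CPM in mutant libraries (0.45 ± 0.04, adjusted p = 1.2e-12). All IFNg libraries of both genes lay above their vehicle libraries. These were the 2 members whose IFNg response differed between the lines in the test of the difference itself, by 0.38 ± 0.06 for Ccnd2 (adjusted p = 3.2e-05) and 0.30 ± 0.05 for Ccnd1 (adjusted p = 0.00031). They were 2 of 43, against 1.65% of all genes, and none reached 1.5-fold, against 0.471%; both also passed with the structural RNA covariate (0.42 ± 0.05 and 0.30 ± 0.05). Under IFNg, Ccnd2 made up 19.1% ± 0.400 of the summed D cyclin level per length in wild-type and 33.4% ± 0.970 in mutant cells. Ccnd3 was 87.2, 86.9, 85.2 and 94.9 CPM in wild-type and 99.5, 92.5, 94.2 and 100.1 CPM in mutant IFNg libraries, and its rise passed the test in the mutant (0.18 ± 0.05, adjusted p = 0.0035, beside 0.034 ± 0.05 in wild-type). Ccne1 rose in both lines (0.11 ± 0.04 and 0.22 ± 0.04; with the covariate 0.050 ± 0.05 and 0.18 ± 0.04, the first no longer past the test), with 23.8, 23.7, 24.1 and 25.7 CPM and 26.6, 26.0, 27.4 and 27.7 CPM.

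Among S phase members, 9 of 17 fell and none rose in wild-type cells, and 7 fell and none rose in mutant cells (median log2 fold changes -0.11 and -0.10, beside -0.013 and -0.0098 over all genes). Mcm5, Cdc6, Gins2, Gins4 and Pcna fell in both lines. Cdt1 fell in wild-type cells to 28.6, 25.0, 27.1 and 27.8 CPM (-0.57 ± 0.12, adjusted p = 0.00072) and was 21.0, 20.3, 18.2 and 19.1 CPM in mutant cells (-0.23 ± 0.13, adjusted p = 0.18). Mcm5 was 569, 561, 603 and 590.1 CPM and 385, 401, 406 and 401 CPM, a smaller shift than its difference between the lines (-0.15 and -0.10). With the structural covariate 2 S phase members fell in wild-type and 3 in mutant cells. Mitotic members went the other way where they passed: 4 of 11 rose and none fell in wild-type cells, and 2 rose and none fell in mutant cells. Top2a, which untangles replicated chromosomes, rose from 842 ± 39.6 to 991 ± 39.4 CPM in wild-type (0.24 ± 0.04, adjusted p = 2e-05) and from 769 ± 20.7 to 923 ± 15.8 CPM in mutant cells (0.26 ± 0.04, adjusted p = 2.3e-06). The spindle kinase Aurka rose in both as well (0.19 and 0.21). With the covariate the mitotic count was 1 higher and 1 lower in wild-type and 3 higher and 1 lower in mutant cells. At most 1 of Top2a and Aurka was therefore still called higher in wild-type cells in that fit. G1 members had 4 higher and 3 lower in wild-type and 5 higher and 2 lower in mutant cells, with E2f2 falling in both (-0.29 and -0.26) and E2f1 in the mutant (-0.36, beside -0.10 in wild-type).

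**Figure D4:**
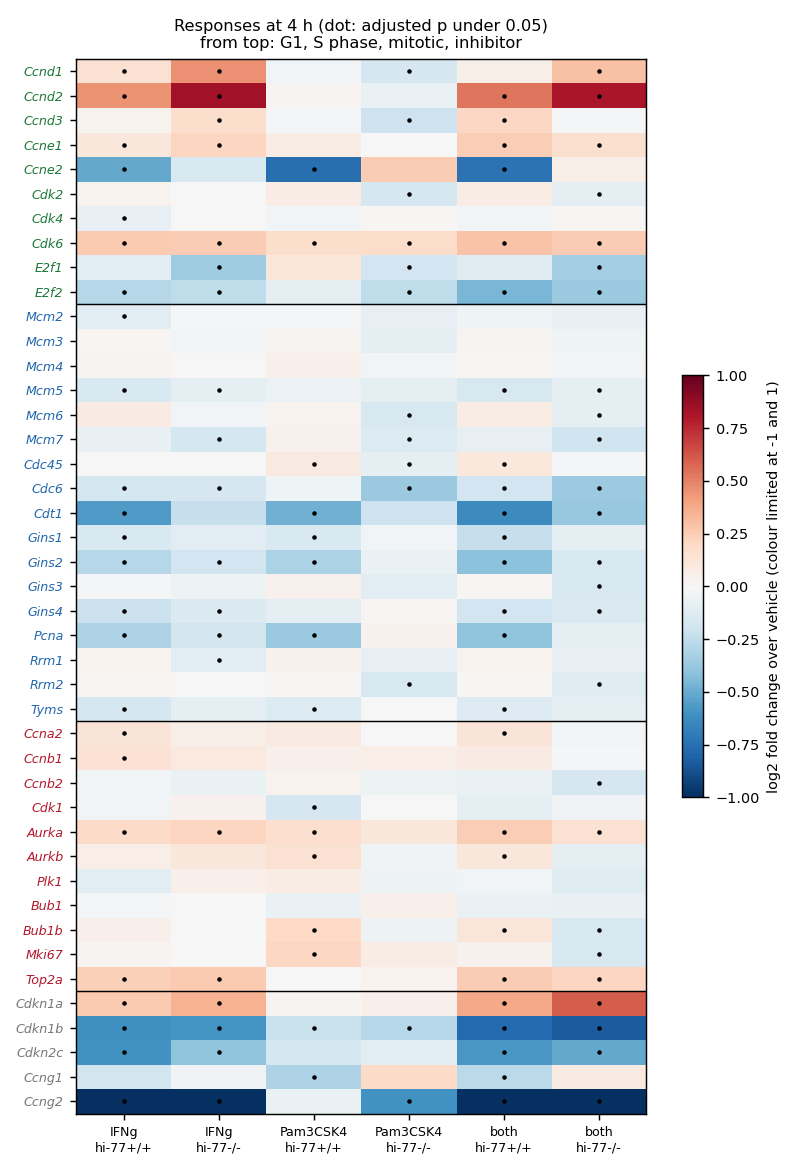
Log2 fold change of each member over vehicle after 4 h of IFNg, Pam3CSK4 or both, in each line, with colour limited at -1 and 1 and a dot where the adjusted p was under 0.05. Ccng2 is the deepest fall under IFNg (-1.31 and -1.45), Ccnd2 the strongest rise (0.45 and 0.84), and the blocks of S phase and mitotic members are pale.

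Pam3CSK4 alone gave fewer calls than IFNg in both lines, and in the mutant the largest were falls of Ccng2, Cdc6 and Cdkn1b. In wild-type cells 15 of 43 members passed (6 higher, 9 lower), against 22% of all 14869 genes tested (10.4% higher, 11.7% lower); with 1.5-fold required, 1 (Ccne2) passed, against 2.74%. In mutant cells 13 of 43 members passed (1 higher, 12 lower), against 24.3% of all 14869 genes tested (11.5% higher, 12.8% lower); with 1.5-fold required, 1 (Ccng2) passed, against 3.92%. With the structural share as a covariate none of the wild-type calls was left by edgeR (0 of 43, with 3 at an unadjusted p under 0.05, and 1.18% of all genes called); without the covariate DESeq2 called 15 as edgeR did. Of the 13 mutant calls, 12 were kept.

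In mutant cells Ccng2 fell from 23.4, 21.7, 22.5 and 23.1 CPM under vehicle to 14.8, 15.4, 15.3 and 14.1 CPM under Pam3CSK4, without overlap (log2 fold change -0.60 ± 0.06, adjusted p = 1.3e-10). In wild-type cells it was 16.6, 14.6, 15.5 and 15.6 CPM under Pam3CSK4, overlapping vehicle (-0.064 ± 0.06, adjusted p = 0.46). The difference between the 2 responses was -0.54 ± 0.08 (adjusted p = 6.1e-06), and -0.48 ± 0.10 (adjusted p = 0.0013) with the structural covariate. Under Pam3CSK4 the means were close (15.6 ± 0.831 and 14.9 ± 0.575 CPM), whereas under vehicle the mutant was higher. Cdkn1b fell in both lines, to 21.6, 22.8, 20.1 and 22.3 CPM in wild-type (-0.22 ± 0.05, adjusted p = 0.0018) and 17.5, 17.0, 17.1 and 18.9 CPM in mutant libraries (-0.29 ± 0.05, adjusted p = 4.3e-05). Cdkn1a was 23.4, 25.2, 24.7 and 24.6 and 37.1, 36.5, 35.2 and 35.6 CPM, and Cdkn2c 5.38, 4.80, 4.54 and 4.27 and 12.1, 12.9, 11.8 and 13.0 CPM, with neither passing in either line.

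Of the D cyclins, Ccnd1 fell slightly in mutant cells, to 25.0, 26.5, 25.4 and 23.3 CPM (-0.16 ± 0.04, adjusted p = 0.00074), and was 53.3, 50.1, 51.5 and 53.1 CPM in wild-type (-0.028 ± 0.03). Ccnd3 fell in mutant cells to 80.3, 70.9, 72.5 and 72.2 CPM (-0.21 ± 0.05, adjusted p = 0.00092) and was 86.6, 85.0, 85.6 and 86.8 CPM in wild-type (-0.0085 ± 0.05). Ccnd2 passed in neither line (71.2, 67.7, 69.0 and 70.0 and 107, 107, 107 and 102 CPM), and neither did Ccne1 (24.5, 23.5, 22.7 and 24.2 and 23.5, 23.6, 23.2 and 22.8 CPM). Neither Ccnd1 nor Ccnd2 rose past the test with Pam3CSK4. In mutant cells 5 S phase members fell, Mcm6, Mcm7, Cdc45, Cdc6 and Rrm2, led by Cdc6 (from 61.5 ± 1.15 to 47.6 ± 1.02 CPM, -0.37 ± 0.04, adjusted p = 3.5e-08), and no mitotic member passed. Mcm5 was 627, 601, 620.1 and 629 CPM and 403, 404, 412 and 386 CPM and passed in neither line. Cdt1 was 29.3, 30.0, 27.8 and 28.2 CPM in wild-type (-0.48 ± 0.12, adjusted p = 0.0064) and 19.6, 19.9, 22.4 and 17.6 CPM in mutant libraries (adjusted p = 0.27). In wild-type cells 4 mitotic members rose (Aurka, Aurkb, Bub1b and Mki67, 0.15 to 0.21) and Cdk1 fell (-0.16); these are among the calls lost with the covariate.

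The difference of the Pam3CSK4 response between the lines passed for 17 of 43 members, against 26.6% of all genes, and with 1.5-fold required for 1 (Ccne2), against 5.12%. With the structural covariate 3 members passed, Cdc6 (-0.33 ± 0.08), Ccng2 and Cdk6 (0.24 ± 0.06, not called without the covariate at 0.0094 ± 0.08). Beside Ccng2 the main differences were in Ccne2 (1.01 ± 0.24), Ccng1 (0.50 ± 0.11) and Pcna (0.42 ± 0.09), with the response of the mutant above that of the wild type; none of these 3 passed with the covariate (0.28 ± 0.19, 0.20 ± 0.09 and 0.12 ± 0.07).

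With both agonists the means of Ccng2 and Cdkn1b were the lowest, and that of Cdkn1a the highest, of the 4 conditions in each line. Both agonists were not tested against IFNg alone or Pam3CSK4 alone, for members or for other genes. Ccng2 was 5.19, 5.40, 5.76 and 5.08 CPM in wild-type and 5.58, 5.81, 5.89 and 5.10 CPM in mutant libraries, a fall of 3.04-fold and 4.05-fold from vehicle (log2 fold change -1.60 ± 0.06 and -2.02 ± 0.06, adjusted p = 8.2e-22 and 4e-25). The lines met at nearly the same level from different starts, and the difference of their responses was -0.41 ± 0.08 (adjusted p = 0.00072). Cdkn1b fell to 15.1, 15.4, 14.9 and 13.5 CPM in wild-type (-0.78 ± 0.05, adjusted p = 6.1e-15) and 11.3, 11.9, 12.7 and 12.3 CPM in mutant libraries (-0.83 ± 0.05, adjusted p = 9.5e-16). Cdkn2c was 3.89, 3.31, 3.66 and 3.49 CPM and 9.53, 9.21, 9.76 and 9.28 CPM (-0.58 ± 0.09 and -0.51 ± 0.08, adjusted p = 1.2e-06 and 1.3e-06). Cdkn1a rose to 30.5, 33.0, 31.7 and 30.3 CPM in wild-type (0.38 ± 0.05, adjusted p = 1.7e-07) and to 51.8, 49.2, 57.8 and 53.8 CPM in mutant libraries (0.61 ± 0.05, adjusted p = 1.7e-12). The Cdkn1a rise was larger in the mutant (difference 0.22 ± 0.07, adjusted p = 0.029; with the structural covariate 0.20 ± 0.08, adjusted p = 0.12).

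In wild-type cells 25 of 43 members passed (11 higher, 14 lower), against 43.7% of all 14869 genes tested (21.2% higher, 22.4% lower); with 1.5-fold required, 4 passed, against 9.39%. In mutant cells 25 of 43 members passed (7 higher, 18 lower), against 43.8% of all 14869 genes tested (23.7% higher, 20.1% lower); with 1.5-fold required, 4 passed, against 11%. Ccnd2 was 98.5, 99.7, 98.6 and 100.2 CPM in wild-type (0.54 ± 0.04) and 202, 192, 189 and 197 CPM in mutant libraries (0.82 ± 0.04), close to its level with IFNg alone. Ccnd1 was 54.4, 54.3, 55.3 and 57.3 CPM in wild-type (0.061 ± 0.03, adjusted p = 0.16) and 34.4, 32.9, 36.1 and 34.1 CPM in mutant libraries (0.29 ± 0.04, adjusted p = 2.2e-08). Ccnd3 rose in wild-type cells, to 101, 96.6, 104 and 97.2 CPM (0.21 ± 0.05), and was 86.0, 78.5, 86.6 and 87.4 CPM in mutant cells (-0.015 ± 0.05). Ccne1 rose in both, to 26.8, 25.7, 26.5 and 27.7 and 27.6, 25.7, 25.6 and 24.7 CPM (0.24 ± 0.04 and 0.16 ± 0.04). In the mutant, Ccnd2 then held 36.0% ± 1.21 of the D cyclin sum per length, and Ccnd3 53.4% ± 1.11. S phase members had 1 higher and 8 lower in wild-type (Cdc45 rose, by 0.10) and 0 higher and 9 lower in mutant cells, with all 17 values below 0 in the mutant (median -0.10, beside -0.0075). Cdt1 was 26.0, 25.2, 29.2 and 23.2 CPM and 14.8, 15.8, 22.2 and 18.2 CPM (-0.63 ± 0.12 and -0.38 ± 0.13, adjusted p = 0.00015 and 0.018), and Mcm5 580.0, 530.4, 580.4 and 613 CPM and 393, 374, 411 and 411 CPM (-0.16 and -0.10). Mitotic members had 5 higher and 0 lower in wild-type and 2 higher and 3 lower in mutant cells, where Top2a and Aurka rose while Ccnb2, Bub1b and Mki67 fell. With the covariate the mitotic counts were 1 and 1 in wild-type and 2 and 4 in mutant cells, and the S phase counts 0 higher and 4 lower in wild-type and 0 higher and 10 lower in mutant cells. Of the S phase members named here, Cdc45 and Cdt1 in wild-type cells no longer passed in that fit (0.065 ± 0.05 and -0.38 ± 0.16, adjusted p = 0.33 and 0.1). Across all 3 treatments and both lines, Cdk6 was called higher and Cdkn1b lower 6 times of 6, though with the covariate Cdk6 in wild-type cells was 0.093 ± 0.05, -0.016 ± 0.05 and 0.064 ± 0.05 for IFNg, Pam3CSK4 and both and passed in none of these (adjusted p = 0.17, 0.97 and 0.4), and Cdkn1b in wild-type cells under Pam3CSK4 was -0.11 ± 0.06 (adjusted p = 0.58). Mcm3, Mcm4, Plk1 and Bub1 were called in none of the 6.

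The response to both agonists differed between the lines for 15 of 43 members, against 15.8% of all genes, and with 1.5-fold required for 1 (Ccne2), against 3.12%. With the structural covariate 4 passed: Ccnd2 (0.37 ± 0.05), Ccnd1 (0.23 ± 0.06), Ccng2 (-0.37 ± 0.09) and Bub1b (-0.19 ± 0.04). Ccnd1 and Ccnd2 had also differed in their response to IFNg. Leaving out 1 library at a time gave 5 to 20 members, with 5 without library 4 and 9 without library 3 of mutant cells given both, and 7 without wild-type vehicle library 4.

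Ccne2, Pcna and Ccng1 had levels that moved with the structural RNA share within some groups as well as between them. In wild-type vehicle libraries 1 to 4 that share was 25.8%, 19.4%, 21.9% and 28.8%, Ccne2 was 139, 97.0, 78.2 and 125 CPM, Pcna 577, 498, 454 and 560.4 CPM and Ccng1 304, 253, 228 and 283 CPM. Libraries 1 and 4 were the highest in all 4 measures, while libraries 2 and 3 stood in the opposite order for the share and the genes. In mutant IFNg libraries the share was 24.3%, 22.6%, 22.0% and 15.4% and Ccne2 111, 103, 113 and 65.7 CPM, with library 4 lowest in both. Ccne2 was 78.3, 83.6, 87.0 and 58.4 CPM under IFNg, 66.0, 69.3, 63.6 and 61.0 CPM under Pam3CSK4 and 69.2, 68.5, 60.9 and 63.9 CPM under both in wild-type cells. Its log2 fold changes there were -0.51 ± 0.17, -0.76 ± 0.17 and -0.74 ± 0.17 (adjusted p = 0.023, 0.0033 and 0.0011), falls that passed the test. With the covariate they were 0.029 ± 0.14, -0.13 ± 0.15 and -0.037 ± 0.16 (adjusted p = 0.93, 0.86 and 0.91). In mutant cells Ccne2 was 109, 121, 136 and 157 CPM under Pam3CSK4 and 97.7, 94.2, 131 and 135 CPM under both, and passed in no treatment. Under both, libraries 3 and 4 were highest in Ccne2 and in the share (18.9%, 18.8%, 27.8% and 26.3%), but under Pam3CSK4 library 4 had the highest Ccne2 with a share of 26.9%, below the 30.3% of library 3. Pcna fell in wild-type cells by all 3 treatments (-0.31, -0.37 and -0.40), and with the covariate the values were -0.084 ± 0.05, -0.12 ± 0.05 and -0.11 ± 0.06 (adjusted p = 0.28, 0.47 and 0.16). By contrast Ccnd1 spanned 51.9 to 54.6 CPM over the same wild-type vehicle libraries.

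**Figure D5:**
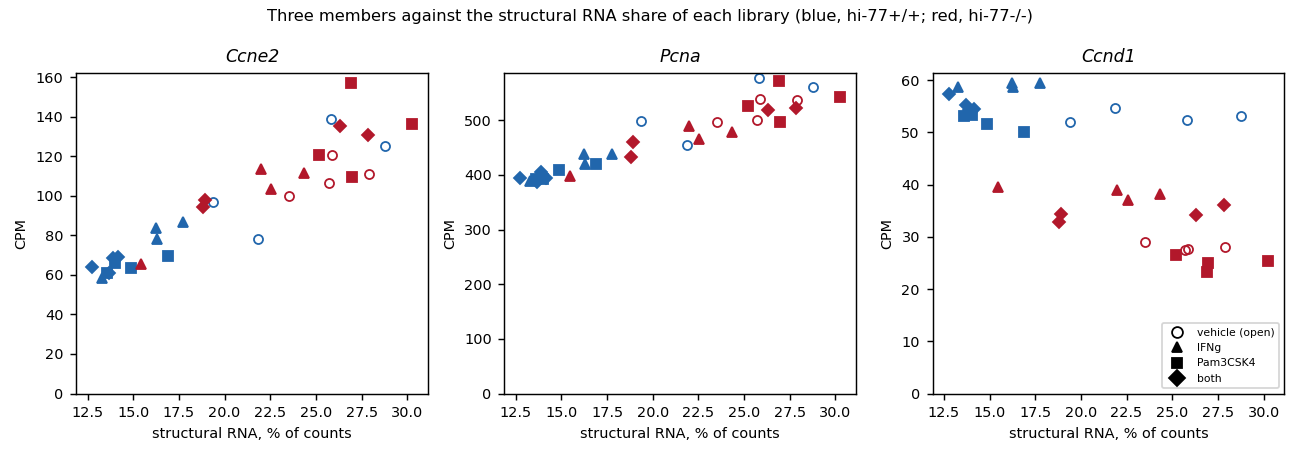
CPM of Ccne2, Pcna and Ccnd1 in each library against the percent of its counts in mitochondrial and small structural RNAs, wild-type in blue and mutant in red, with vehicle as open circles. Ccne2 and Pcna are low in the libraries with a low share, most of them treated wild-type ones, while Ccnd1 separates by line at every share.

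Per kilobase of effective length, members spanned a wide range under vehicle. In wild-type cells Pcna was the highest (406 ± 42.6 CPM per kilobase), followed by Mcm5 (246 ± 5.73) and Cdk4 (244 ± 6.80), whose spreads overlapped. In mutant cells the order below Pcna (403 ± 18.3) was Cdk4 (271 ± 5.08), Mcm6 (207 ± 3.71), Mcm7 (184 ± 4.79) and then Mcm5 (164 ± 1.13). The MCM subunits, which work as a ring with 1 copy of each, ran from 70.9 ± 3.26 for Mcm4 to that of Mcm5 in wild-type cells. The lowest members were E2f2 (2.80 ± 0.146) and, in wild-type cells, Cdkn2c (4.17 ± 0.217). Cdkn2c in the mutant (12.2 ± 0.965) was above E2f1 (5.77 ± 0.309) and Ccng2 (9.58 ± 0.347).

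Of the further replication and mitotic genes that passed in the mutant under vehicle, more were lower than higher. The share called in these lists was close to that of all genes under vehicle (53.7%, with 24.4% higher and 29.3% lower). Of other replication genes (origin, polymerase and clamp loader genes), the mutant under vehicle had 5 higher and 16 lower of 41 (51.2% called), with a median of -0.072 (5 and 16 and a median of -0.048 with the covariate). The falls were led by Orc6 (-0.44 ± 0.08), Fen1 (-0.42 ± 0.04) and Pold2 (-0.41 ± 0.07), and the clamp loader genes Rfc2 and Rfc3 were higher (0.40 ± 0.04 and 0.29 ± 0.04). Other mitotic genes had 2 higher and 19 lower of 42 (50% called), with a median of -0.087, led by Incenp (-0.41 ± 0.05) and Ckap2 (-0.40 ± 0.04); under both agonists it was 3 higher and 33 lower of 42, against 30.5% and 29.7% of all genes, and 1 and 27 with the covariate. In wild-type cells IFNg gave 3 higher and 14 lower of 41 replication and 4 higher and 6 lower of 42 mitotic genes, against 17.8% higher and 17.6% lower of all genes. With the covariate these were 3 and 7 and 1 and 5. Tk1 fell (-0.33 ± 0.05; -0.29 ± 0.07 with the covariate), as did the licensing inhibitor Gmnn (-0.26 ± 0.06), which did not pass with the covariate (-0.081 ± 0.06, adjusted p = 0.42). Pam3CSK4 in wild-type cells gave 2 higher and 11 lower of 41 replication and 17 higher and 2 lower of 42 mitotic genes, against 10.4% and 11.7% of all genes, but with the covariate none of either list passed by edgeR (0 of 41 and 0 of 42, with 4 and 3 at an unadjusted p under 0.05, where 1.18% of all genes passed; without the covariate DESeq2 called 13 and 19). In mutant cells Pam3CSK4 gave 3 higher and 15 lower of 41 replication and 3 higher and 7 lower of 42 mitotic genes, against 11.5% and 12.8% of all genes, and 4 and 17 and 3 and 8 with the covariate. With the covariate, IFNg in mutant cells gave 4 higher and 14 lower of 41 replication and 1 higher and 14 lower of 42 mitotic genes. Both agonists gave 7 and 16 and 3 and 31 in mutant cells by that fit, and 3 and 9 and 0 and 9 in wild-type cells. The percent of all genes called in that fit is not given for these.

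Of 20 genes of the RB and E2F system, the mutant under vehicle had 3 higher and 8 lower (55.0% called, near the 53.7% of all genes). The repressor E2F gene E2f4 and its partner Tfdp1 were lower (-0.87 ± 0.04 and -0.44 ± 0.03). E2f7, an atypical repressor of S phase genes, had 0 to 3 counts in each wild-type library and 73 to 161 in each mutant library. Its relative E2f8 was lower in the mutant under vehicle (-0.43 ± 0.06). E2f8 rose there with Pam3CSK4 (1.02 ± 0.06, from 27.8 to 56.3 CPM) and with both agonists (1.24 ± 0.06). The response to both differed from wild-type by 1.12 ± 0.08. The pocket protein gene Rbl2 fell with IFNg in both lines (-0.28 ± 0.04 and -0.44 ± 0.04). The phosphatase gene Cdc25a, which activates Cdk2, rose (0.36 ± 0.04 and 0.29 ± 0.04). With the covariate the IFNg calls in this list of 20 were 5 higher and 2 lower in wild-type and 6 higher and 4 lower in mutant cells. Values of Rbl2 and Cdc25a in that fit are not given here.

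Of other CDK inhibitor and p53 target genes, 20 of 21 were tested and the mutant under vehicle had 5 higher and 10 lower of 20 (75.0% called, beside 53.7% of all genes). The antiproliferative gene Btg2 was higher in the mutant (1.10 ± 0.21) and rose with Pam3CSK4 in both lines (0.70 ± 0.21 and 1.83 ± 0.16), further in the mutant (difference 1.12 ± 0.27). With the covariate neither the wild-type rise (0.80 ± 0.26, adjusted p = 0.18) nor the difference (1.01 ± 0.33, adjusted p = 0.053) passed. Gadd45b rose with IFNg in both (0.58 ± 0.12 and 0.97 ± 0.13), while Trp53inp1 fell (-0.55 ± 0.08 and -0.77 ± 0.07). With the covariate 4 of these 20 genes were higher and 6 lower under IFNg in each line. Values of Gadd45b and Trp53inp1 in that fit are not given here. The MYC network had 3 higher and 3 lower of 11 under vehicle (54.5% called, near the 53.7% of all genes), with Mycn lower (-1.67 ± 0.09). The MYC antagonist Mxd1 rose with IFNg (0.78 ± 0.05 and 0.97 ± 0.05) and with both agonists (1.37 ± 0.05 and 2.31 ± 0.05). Its relatives Mxd3 (-0.82 ± 0.14 and -0.84 ± 0.14) and Mxd4 (-0.77 ± 0.05 and -0.98 ± 0.05) fell with IFNg in both lines. With the covariate the IFNg calls of the 11 MYC network genes were 4 higher and 3 lower in wild-type and 5 higher and 4 lower in mutant cells. Values of Mxd1, Mxd3 and Mxd4 in that fit are not given here.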

How the data were processed

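RNA-seq was made from 32 libraries (8 groups of 4). The submitters' processing notes name STAR 2.5.2b, RSEM 1.3.0 and mm10, with no role or order given. Each library has a deposited table that the authors made with RSEM; per the file headers it holds an expected count and an effective length per gene. The expected counts deposited by the authors are estimates (11.07% of non-zero values were not whole within 1e-06) and were rounded. Total RNA was depleted of ribosomal RNA, per the labels, so RNAs without poly(A) tails take part of each library's 44.18 to 71.42 M counts (M, units of 1000000). Before TMM scaling, CPM of all other genes depend on the share of these RNAs. No 2 libraries held identical values.

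Symbols came from GENCODE vM21 (version numbers ignored, 93 of 55487 identifiers unmatched). edgeR 4.0.16 in R 4.3.3 filtered low genes (filterByExpr), scaled by TMM, and fitted 1 model of 8 group means to all 32 libraries (24 residual degrees of freedom, common biological coefficient of variation 7.22%). The quasi-likelihood test was adjusted by Benjamini-Hochberg over the 14869 genes tested in each of 13 comparisons, and a gene was called at an adjusted p under 0.05. Every count in the text of genes higher, lower or passed uses that rule. The 3 comparisons of responses between the lines test the difference itself. CPM per kilobase divides CPM by the library's effective length. The structural RNA share counts mitochondrial, small nuclear, small nucleolar, micro- and other short structural RNA genes. On counts simulated from these libraries the fit was tested with 200 changed genes. That simulation held neither the differences in structural RNA share nor possible repeats of a culture, and its outcome is not used here.

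The 43 members, their classes and the further gene lists were chosen with earlier results of these data known. All members are named; those that are D or E cyclins or inhibitors, or that passed with a 1.5-fold change, are given by library. From each further list up to 3 rises and 3 falls per comparison, of genes with at least 1 CPM in some group, could be named. Alternatives were DESeq2 1.42.0, RLE scaling, scaling on protein-coding genes, no filter, the libraries of a comparison alone, the replicate number as a block, the structural share as a covariate, a 1.5-fold requirement, and leaving out each library or wild-type vehicle libraries 1 and 4. Promoter windows came from RefSeq (GRCm38.p6) and motifs were searched on both strands.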

Additional observations from a re-analysis of the deposited data

Results flagged for a closer look

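Of 344 checks of a member in a group of 4 libraries, 17 found 1 library far from the other 3 by Dixon's criterion, and chance alone gives about 1 in 20. In the mutant vehicle group this was E2f2 high at 14.3 in library 2 and Tyms low at 121 in library 4 CPM. In the wild-type vehicle group this was Cdc6 low at 62.5 in library 3 CPM. In the mutant IFNg group this was Cdk6 high at 737 in library 4, Tyms low at 111 in library 4 and Ccng2 high at 9.16 in library 4 CPM. In the wild-type IFNg group this was Ccne1 high at 25.7 in library 4, Mcm2 high at 299 in library 4 and Bub1b high at 164 in library 3 CPM. In the mutant Pam3CSK4 group this was Ccnd2 low at 102 in library 4, Ccnd3 high at 80.3 in library 1 and Mcm3 low at 302 in library 4 CPM. In the wild-type Pam3CSK4 group this was Mcm6 low at 544 in library 2 CPM. In mutant cells with both it was Ccnd3 low at 78.5 in library 2 and Bub1 high at 106 in library 4 CPM. In wild-type cells with both it was Gins2 low at 55.5 in library 2 and Ccnb2 low at 84.1 in library 1 CPM.

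Responses of 34 member and treatment pairs differed between the lines in the test of the difference itself, given here as the mutant minus the wild-type log2 response. To IFNg they were Ccnd1 (0.30) and Ccnd2 (0.38). To Pam3CSK4 the mutant response was the higher for Ccne2 (1.01), Gins2 (0.25), Pcna (0.42), Cdk1 (0.17) and Ccng1 (0.50). It was the lower for Ccnd1 (-0.14), Ccnd3 (-0.20), Cdk2 (-0.25), E2f1 (-0.32), Mcm6 (-0.19), Mcm7 (-0.18), Cdc45 (-0.18), Cdc6 (-0.33), Rrm2 (-0.17), Aurkb (-0.19), Bub1b (-0.25) and Ccng2 (-0.54). To both agonists the mutant response was the higher for Ccnd1 (0.23), Ccnd2 (0.28), Ccne2 (0.80), Gins2 (0.25), Pcna (0.30), Cdkn1a (0.22) and Ccng1 (0.36). It was the lower for Ccnd3 (-0.22), Cdk2 (-0.17), Mcm6 (-0.17), Rrm2 (-0.13), Ccna2 (-0.16), Aurkb (-0.21), Bub1b (-0.27) and Ccng2 (-0.41). Once the structural share entered as a covariate, 2 of 2, 2 of 17 and 4 of 15 of these were kept.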

How the results depend on the processing

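Of 290 calls of a member in a comparison, 282 were kept in the same direction by DESeq2, 281 with RLE scaling, 284 with scaling on protein-coding genes, 275 without a filter and 262 in fits of each comparison's own libraries. No sign changed in these. The structural RNA covariate kept 183 and the sign of 281. It changed the number of members called to 22 for genotype under Pam3CSK4, 12, 0 and 15 for IFNg, Pam3CSK4 and both in wild-type cells, and 3 and 4 for the differences of the Pam3CSK4 and combined responses. The log2 changes that turned sign with it were, for genotype under Pam3CSK4, Rrm1 (0.028), Mki67 (0.014) and Ccnb1 (0.00087), and for genotype under both, Ccng1 (-0.020). In wild-type cells they were Ccne2 under IFNg (0.029), Cdk6 under Pam3CSK4 (-0.016), and Ccng1 (0.020), Aurkb (-0.033) and Tyms (0.0039) under both. Wild-type vehicle libraries 1 and 4 also held that group's highest Ccne2, Pcna and Ccng1. Without them the Pam3CSK4 response of wild-type cells had 4 calls, the IFNg response 16 and the response to both 19. The differences of the Pam3CSK4 and combined responses had 10 and 9. Of the S phase members, 0 were higher and 3 lower under IFNg, and 1 higher and 4 lower under both, in wild-type cells without these libraries. The cause of these shifts was not tested.

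With 1.5-fold required, calls for genotype were 5, 4, 5 and 5 under vehicle, IFNg, Pam3CSK4 and both. They were 3, 1 and 4 for IFNg, Pam3CSK4 and both in wild-type cells, 3, 1 and 4 in mutant cells, and 0, 1 and 1 for the differences between the lines. Leaving out 1 library gave 24 to 27, 27 to 34, 37 to 39 and 34 to 36 calls for genotype in the same order. It gave 21 to 25, 10 to 17 and 24 to 27 for the treatments in wild-type and 17 to 23, 12 and 22 to 27 in mutant cells. For the differences of the IFNg, Pam3CSK4 and combined responses it gave 2 to 3, 14 to 20 and 5 to 20, the lowest of the last without mutant library 4 of both agonists. The fit with a replicate block kept 286 of 290 calls, with 24 members called for both in wild-type and 19 for IFNg in mutant cells and the main count in the other comparisons. Deviations of same-numbered libraries correlated at -0.24 to 0.23, and 8 of 32 libraries correlated best with their own number, so the numbers were not taken to pair samples. Low counts did not limit the members, all of which were tested.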

Other observations

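The replication-dependent histone genes, whose RNA lacks a poly(A) tail and builds up in S phase, are seen in total RNA and are not among the 43 members. Summed over 69 genes of the histone clusters, they gave 8986, 6606, 11311 and 11817 CPM in wild-type vehicle libraries. The sums were 5323, 5042, 5420.0 and 5759 CPM under IFNg, 6155, 7301, 5796 and 5800.2 CPM under Pam3CSK4 and 6019, 5843, 6417 and 4971 CPM under both in wild-type cells. Vehicle libraries 1, 3 and 4 lay above every treated wild-type library, and library 2 had both the lowest sum and the lowest structural RNA share of its group. Library 3, with the next lowest share (21.9%), had a sum of 11311 CPM, above that of library 1 (8986 CPM at 25.8%). In mutant cells the sums were 6208, 7904, 7459.5 and 6073 CPM under vehicle, 7546, 6091, 5598 and 5372 CPM under IFNg, 7917, 6624, 8581 and 7342 CPM under Pam3CSK4 and 4949, 4759, 7536 and 6609 CPM under both, and vehicle overlapped each treatment. This sum was chosen after the data had been seen and is given as values without a test.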
